A study of Homo sapiens with 12 samples.

Results

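The peptidylarginine deiminase family was followed through CHD4 and CHD3 silencing in 501Mel cells, a human melanoma line. Its 5 members, PADI1, PADI2, PADI3, PADI4 and PADI6, were taken by gene name from both expression tables, which together hold counts for 35913 genes. All 5 were found in each table. The series holds 12 RNA-seq libraries of cells harvested 72 h after transfection with siRNA pools against CHD4 (siCHD4) or CHD3 (siCHD3), or with control siRNA (siCtrl). The first table holds siCHD4 replicates 1 to 3 with siCtrl replicates 1 to 3, the second siCHD3 replicates 1 to 3 with siCtrl replicates 4 to 6, and no library is in both. All groups are the same untreated line apart from the siRNA. The study's legend gives 3 biological replicates for its RNA-seq of PADI1 and PADI3, without saying whether they came from separate cultures. The p-values measure the spread between these libraries of 1 cell line.

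Peptidylarginine deiminases are calcium-dependent enzymes that turn arginine residues of proteins into citrulline, which removes a positive charge. In humans PADI1 and PADI3 are best known from epidermis and hair follicles, PADI2 from brain, muscle and many other tissues, PADI4 from granulocytes and PADI6 from oocytes. CHD3 and CHD4 are alternative ATPase subunits of NuRD, a complex that couples nucleosome remodelling to histone deacetylation.

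The members lie in 1 cluster of 334940 bases on chromosome 1 (GRCh37, GENCODE v44lift37). PADI2 (chr1:17393256-17445946) is on the minus strand. PADI1 (chr1:17531623-17572502), PADI3 (chr1:17575593-17610728), PADI4 (chr1:17634690-17690499) and PADI6 (chr1:17698691-17728195) follow it on the plus strand. PADI1 and PADI3 are separated by 3090 bases, PADI2 and PADI1 by 85676, PADI3 and PADI4 by 23961 and PADI4 and PADI6 by 8191. No exon base of a member is shared with another annotated gene. PADI6 was matched to the annotation by its symbol, because its identifier in the tables was not found there.

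Promoter windows of 300 bases, 250 before and 50 after the RefSeq start, were found for 4 of the 5 members (RefSeq, GRCh38.p14). PADI3 had no entry. PADI1 and PADI2 are shown, with every CG in capitals, as neighbours on opposite strands with unlike CpG content. The windows are chr1:17204878-17205177, plus strand, for PADI1 and chr1:17119402-17119701, minus strand, for PADI2.
PADI1: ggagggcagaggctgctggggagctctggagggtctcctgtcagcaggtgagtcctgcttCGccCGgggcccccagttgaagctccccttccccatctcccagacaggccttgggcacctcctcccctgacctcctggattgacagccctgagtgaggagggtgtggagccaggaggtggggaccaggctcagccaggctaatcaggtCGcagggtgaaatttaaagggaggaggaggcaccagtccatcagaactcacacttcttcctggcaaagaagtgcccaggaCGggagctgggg
PADI2: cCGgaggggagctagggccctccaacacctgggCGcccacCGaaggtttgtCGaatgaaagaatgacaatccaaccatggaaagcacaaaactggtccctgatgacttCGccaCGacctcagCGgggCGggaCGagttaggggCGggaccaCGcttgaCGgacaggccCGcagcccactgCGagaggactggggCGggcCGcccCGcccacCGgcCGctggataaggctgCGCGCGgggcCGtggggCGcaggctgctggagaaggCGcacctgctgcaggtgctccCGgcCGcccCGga
The PADI1 window held 4 CG and the PADI2 window 28, against a median of 14 over 35116 promoters of that length. PADI4 held 7 and PADI6 held 4, and neither was called after siCHD4. Low CpG content was therefore not particular to PADI1, and PADI3, which also rose, has no window here. The windows were also searched on both strands for 3 motifs, whose matches overlapped in none of these windows. The AP-1 motif, TGANTCA, occurs in 7.71% of those promoters. The TATA box, TATAAA, occurs in 11.5%. The core of the hypoxia response element, ACGTG, occurs in 21.4%. Only the PADI4 window held any of them, 1 TGACTCA from -54 to -48 and 1 TATAAA from -30 to -25 before the start. It is shown with these letters in capitals (chr1:17307947-17308246, plus strand). No match says only that these letters are not in the window.
PADI4: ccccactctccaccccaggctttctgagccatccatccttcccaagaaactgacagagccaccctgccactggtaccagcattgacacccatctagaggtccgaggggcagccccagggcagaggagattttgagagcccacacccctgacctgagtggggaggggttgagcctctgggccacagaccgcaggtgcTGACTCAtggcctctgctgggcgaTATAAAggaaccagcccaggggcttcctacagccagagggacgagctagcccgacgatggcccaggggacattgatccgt

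Library depth was 44966728 to 102005319 counts in the first table and 38573214 to 57219281 in the second. Levels below are CPM, counts scaled to a common depth by library total and TMM factor, and are mean ± SD over 3 libraries. siCtrl replicate 3 stood apart from siCtrl replicates 1 and 2, with a TMM factor of 0.816. CHD4 fell to 12.2% of siCtrl after siCHD4 and CHD3 to 20.3% after siCHD3. All 7 melanocyte lineage markers were tested and none was called in either comparison, while keratinocyte markers were at or near 0 apart from KRT10, with at most 17 counts over 3 libraries for the others.

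Before silencing, the whole family was close to silent. The 5 members together had 25, 72 and 26 counts in the libraries siCtrl 1 to 3, and 24, 47 and 45 in siCtrl 4 to 6. PADI1 measured 0.292 ± 0.149 CPM in the first set, above 15.4% of the 17018 genes tested there, and 0.544 ± 0.153 CPM in the second. PADI3, PADI4 and PADI6 stood lower, at 0.0214 ± 0.00938, 0.0448 ± 0.0461 and 0 CPM in siCtrl replicates 1 to 3. Their order does not go beyond the spread of the libraries. A count of 0 in all 3 libraries allows up to 3 counts, which is 0.0145 CPM over the group. In bulk RNA, few cells with much transcript and many cells with little cannot be told apart.

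PADI1 and PADI3 rose after CHD4 silencing, and no other member was called. A gene was called at an edgeR adjusted p under 0.05, over all genes tested, and an absolute log2 fold change over 1. By this rule 4.8% of the 17018 genes tested were called higher and 1.65% lower. PADI1 and PADI3 were the members tested, and PADI3 entered the test only through its siCHD4 libraries, so their number is not itself a result.

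PADI3 deiminates trichohyalin and S100A3 in the hair follicle. Its siCtrl libraries 1 to 3 held 1, 2 and 1 reads and its siCHD4 libraries 336, 307 and 426, or 0.0106, 0.0263 and 0.0273 CPM against 3.87, 3.57 and 3.96 CPM. All siCHD4 libraries were above all siCtrl libraries, as for 12.8% of genes with a count. The ratio of summed counts was 198 (95% interval 77.0 to 727, counting error only), and the log2 fold change of 7.50 ± 0.35 (SE) ranked 8 of 817 among the genes called higher (edgeR adjusted p = 0.000248). Without the count filter the log2 fold change was 7.51 ± 0.48 (edgeR adjusted p = 3.59e-10).

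PADI1, which deiminates keratins and filaggrin in the epidermis, had 18, 17 and 17 counts in siCtrl and 294, 265 and 401 after siCHD4. These counts are 0.190, 0.224 and 0.463 CPM against 3.38, 3.08 and 3.73 CPM. The groups did not overlap, and the siCtrl library with the highest PADI1 level was siCtrl replicate 3, the library that stood apart. The log2 fold change was 3.63 ± 0.36, rank 157 of the 817 (edgeR adjusted p = 0.00212), and it was 4.06 without siCtrl replicate 3.

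**Figure D1:**
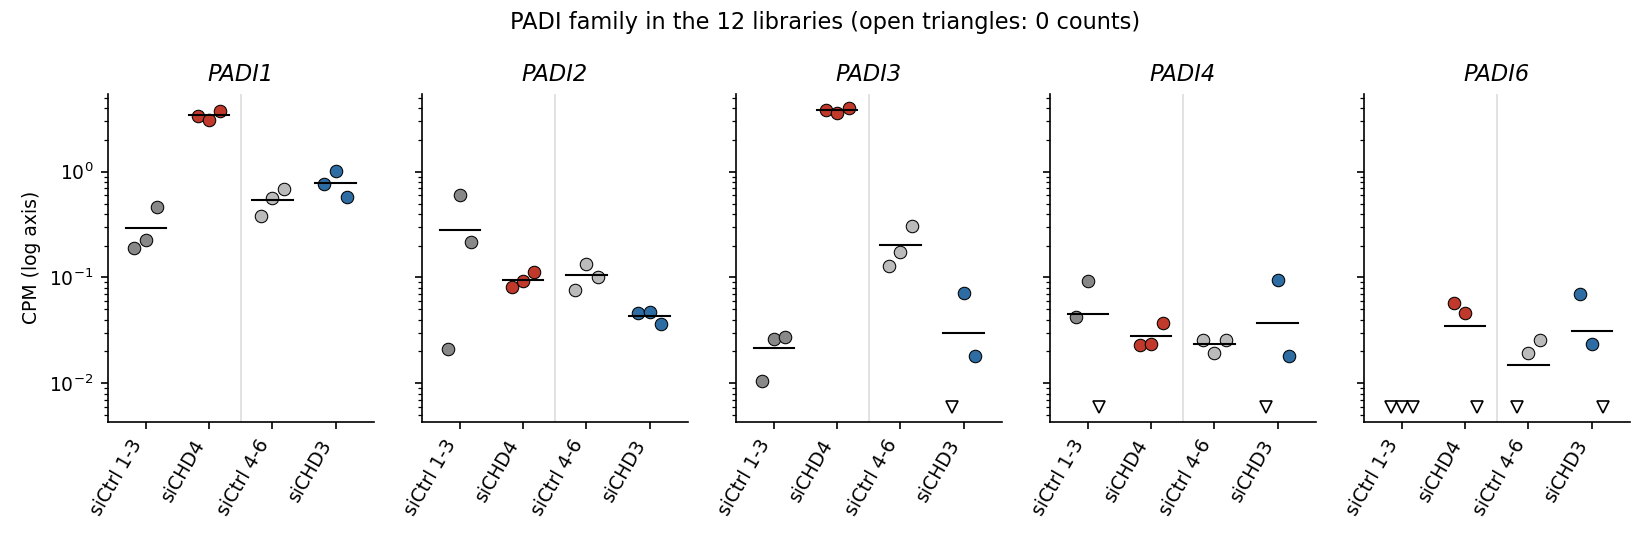
Level of each PADI gene in each of the 12 libraries, in CPM on a log axis; points are libraries, horizontal lines group means over 3 libraries, and open triangles libraries with 0 counts, drawn at the foot of the axis. PADI1 and PADI3 sit above 3 CPM in the siCHD4 libraries, and PADI3 is the member whose control sets are farthest apart, with 0.0106 to 0.0273 CPM in siCtrl 1 to 3 and 0.128 to 0.306 CPM in siCtrl 4 to 6.

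The silenced cells held PADI1 and PADI3 at like levels, below the median of the genes tested, 11.6 CPM. After siCHD4 they reached 3.40 ± 0.324 and 3.80 ± 0.204 CPM, above 37.2% and 38.0% of the genes tested. The family's reads rose from 41.0 ± 26.9 to 691 ± 135 counts per library. PADI3 took 51.7 ± 1.01% of them in the siCHD4 libraries and 3.54 ± 0.67% in siCtrl replicates 1 to 3, and PADI1 took 46.1 ± 1.25% and 53.7 ± 26.2%.

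**Figure D2:**
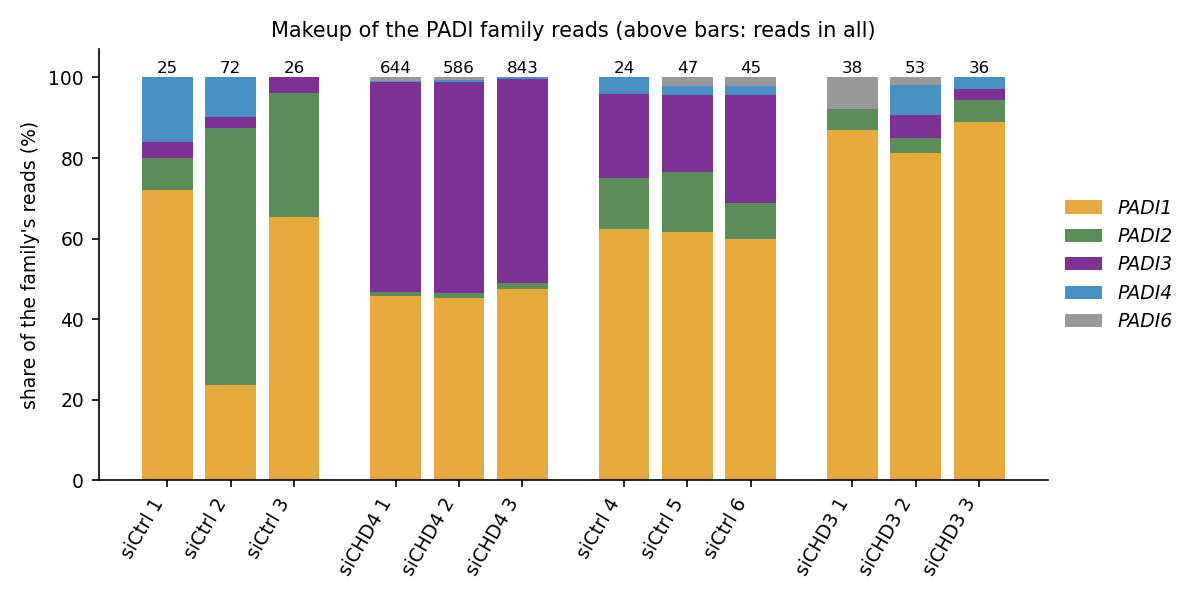
Share of the family's reads that each member took in each library, in percent, with the total of the 5 members above each bar. PADI3 takes 50.5% to 52.4% in the siCHD4 libraries, 2.78% to 4.0% in siCtrl 1 to 3, 19.1% to 26.7% in siCtrl 4 to 6 and 0% to 5.66% in the siCHD3 libraries.

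Within a library, the ratio of PADI3 to PADI1 is free of scaling. Per kb of the authors' gene length, with 0.5 counts added to each gene, the log2 ratio was -4.73, -3.92 and -4.65 under siCtrl (1 to 3) and -0.92, -0.90 and -1.02 after siCHD4. All 3 siCHD4 ratios were higher than all siCtrl ratios. The change of 3.49, an 11.2-fold shift towards PADI3, has an exact two-sided permutation p of 0.1, the smallest that 3 libraries against 3 can give. Which of the 2 genes was the more abundant per length depended on the length used. The authors' length is 1.4795 kb for PADI1 and 3.189 kb for PADI3, and the log2 ratio in siCHD4 libraries was then -0.94 ± 0.07. With the canonical transcripts of 3.846 and 3.189 kb, a choice made after seeing the data, it was 0.43 ± 0.07, with PADI3 the higher.

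After CHD3 silencing PADI3 was lower and PADI1 was not called. By the same rule 3.89% of 16115 genes were called higher and 4.33% lower, and PADI1 was the member tested. PADI1 counts were 15, 29 and 27 under siCtrl (4 to 6) and 33, 43 and 32 under siCHD3, or 0.384, 0.559 and 0.688 CPM against 0.765, 1.02 and 0.576 CPM. The groups overlapped. The log2 fold change was 0.52 ± 0.35 (edgeR adjusted p = 0.334), and the ratio of summed counts was 1.40 (95% interval 1.03 to 1.92, counting error only).

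PADI3 counts were 5, 9 and 12 under siCtrl (4 to 6) and 0, 3 and 1 under siCHD3, which kept it below the count filter. All siCHD3 libraries (0, 0.0709 and 0.018 CPM) were below all siCtrl libraries (0.128, 0.173 and 0.306 CPM), a pattern that 12.5% of the 33154 genes with a count showed in that direction. The ratio was 0.142 (95% interval 0.036 to 0.410, counting error only), and the exact two-sided permutation p of 0.1 is the smallest possible. Without the filter the log2 fold change was -2.67 ± 0.83 (edgeR adjusted p = 0.0151), a call that 2.68% of genes shared. In 1 fit over all 12 libraries it was -2.72 ± 0.63 (edgeR adjusted p = 0.0152, 3.12% of genes). PADI3 passed the filter of that fit only through its siCHD4 libraries, which also entered its estimate of spread, so that call is no separate support. DESeq2 gave -2.79 with an adjusted p of 0.0762.

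The control sets themselves differed in PADI3. On the library total alone, siCtrl replicates 4 to 6 held 10.7 times the PADI3 of siCtrl replicates 1 to 3 (95% interval 3.72 to 42.3, counting error only), with no overlap. Of 17357 genes, 44.8% did not overlap between the control sets and 1.46% did so by as large a ratio. PADI1 differed 2.25-fold (95% interval 1.55 to 3.28), also with no overlap, as did 22.8% of genes by as large a ratio. The 4 PADI3 counts over the siCHD3 libraries stand beside 4 counts over siCtrl replicates 1 to 3, so the fall after siCHD3 was seen against siCtrl replicates 4 to 6 alone. What set the control libraries apart was not tested.

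The PADI3 to PADI1 ratio moved the other way after siCHD3. The log2 ratio per kb was -2.60, -2.74 and -2.25 under siCtrl (4 to 6) and -7.17, -4.74 and -5.55 under siCHD3, lower in 3 of 3 siCHD3 libraries than in any siCtrl library. The change of -3.29 has an exact two-sided permutation p of 0.1. It was -2.61 without siCHD3 replicate 1, whose ratio rests on 0 PADI3 counts and the 0.5 added, and -3.83 without siCHD3 replicate 2.

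The responses to siCHD4 and siCHD3 differed for both genes. The test of the difference over all 12 libraries, each silencing against its own siCtrl, gave a log2 difference of 10.21 ± 0.79 for PADI3 (edgeR adjusted p = 1.77e-05) and 3.13 ± 0.47 for PADI1 (edgeR adjusted p = 0.00109). With a library left out PADI3 ran from 9.70, without siCHD3 replicate 1, to 11.52, without siCHD3 replicate 2, and PADI1 from 2.87 to 3.57. In that test 6.1% of 17357 genes were called higher and 5.57% lower. PADI3 passed its count filter only through the siCHD4 libraries, and without the filter the difference was 10.22. The size of each difference also depends on the control sets, which differed 10.7-fold in PADI3 and 2.25-fold in PADI1. On the library total alone, PADI3 averaged 3.98 CPM in siCHD4 and 0.0293 CPM in siCHD3, and PADI1 averaged 3.56 and 0.775 CPM.

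CHD4 itself was not level across the groups. It rose after siCHD3, from 329 ± 29.2 to 562 ± 33.0 CPM, with a log2 fold change of 0.77 ± 0.13 that passed the p threshold but not the fold threshold (edgeR adjusted p = 0.00132). The tables were normalized separately, so CHD4 and the members are set side by side on the library total alone. CHD4 ran from 61.2 to 83.1 CPM in siCHD4, 304 to 357 CPM in siCtrl 4 to 6, 482 to 566 CPM in siCtrl 1 to 3 and 521 to 571 CPM in siCHD3. In the same order of groups PADI3 ran from 3.73 to 4.18 CPM, 0.13 to 0.304, 0.0105 to 0.0281 and 0 to 0.0704 CPM. It was lower at each of the first steps and not at the last, where the groups overlapped in both genes and the PADI3 mean was 0.0203 CPM in siCtrl 1 to 3 and 0.0293 CPM in siCHD3. PADI1 ran from 3.22 to 3.93 CPM, 0.389 to 0.684, 0.19 to 0.378 and 0.559 to 1.01 CPM. Within siCtrl replicates 4 to 6 the library with the most CHD4 also had the most PADI3. These levels are a description, and a part of CHD4 level in those of PADI3 was not tested.

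**Figure D3:**
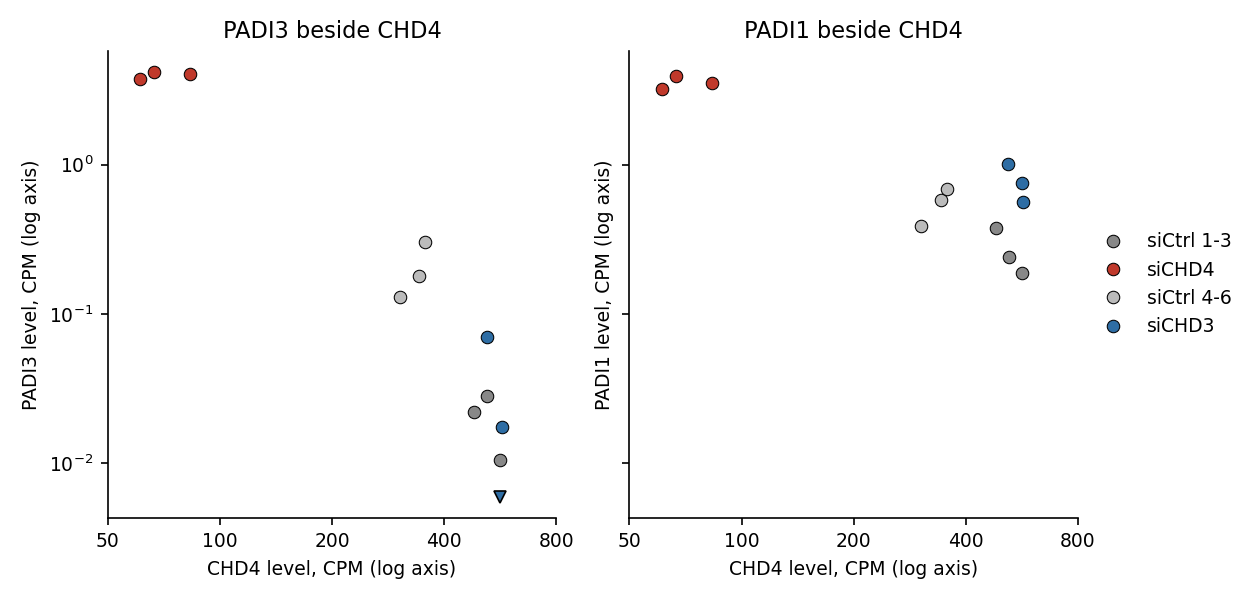
PADI3 (left) and PADI1 (right) against CHD4 in the 12 libraries, in CPM on the library total alone, both axes log; each point is a library, and the triangle is a siCHD3 library with 0 PADI3 counts. PADI3 is highest in siCHD4 and next in siCtrl 4 to 6, the groups with less CHD4, and overlaps between siCtrl 1 to 3 and siCHD3, while the siCHD3 libraries hold 0.559 to 1.01 CPM of PADI1, above siCtrl 1 to 3 at like CHD4.

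PADI2, PADI4 and PADI6 stayed low after both silencings, and no difference was detectable at this depth in most settings. PADI2, the broadly expressed member, held 2, 46 and 8 reads under siCtrl (1 to 3) and 7, 8 and 12 after siCHD4. The groups overlapped, and siCtrl replicate 2 held most of the siCtrl reads (0.606 CPM against 0.0211 and 0.218 CPM). The exact two-sided permutation p was 0.7. Leaving out siCtrl replicate 1, the control with the fewest PADI2 reads, brought PADI2 into the edgeR test as called lower (log2 fold change -2.16, adjusted p = 0.0483). That fit called 3.04% of genes lower. PADI2 passed the count filter of that fit only through siCtrl replicates 2 and 3, where it was higher, so that call is no separate support. In the fits that left out a siCHD4 library PADI2 was tested and not called (edgeR adjusted p = 0.603 to 0.663). Leaving out siCtrl replicate 2 turned the difference in mean log2 CPM from -0.68 to 0.18. After siCHD3 PADI2 had 2, 2 and 2 counts against 3, 7 and 4, lower in 3 of 3 libraries than in any siCtrl library. Of the 33154 genes with a count, 12.5% showed that pattern. The PADI2 ratio was 0.396 (95% interval 0.125 to 1.10, counting error only), with an exact two-sided permutation p of 0.1.

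PADI4, which citrullinates histones in granulocytes, held 4, 7 and 0 reads under siCtrl (1 to 3) and 2, 2 and 4 after siCHD4, a ratio of 0.538 (95% interval 0.188 to 1.47; exact two-sided permutation p = 0.9). In the siCHD3 table it had 1, 1 and 1 counts in siCtrl and 0, 4 and 1 after siCHD3 (ratio 1.54, 95% interval 0.299 to 9.91; exact two-sided permutation p = 1). PADI4 groups overlapped in both tables, and both intervals hold counting error only.

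PADI6, a component of cytoplasmic structures of the oocyte, held 0 reads in each of siCtrl 1 to 3 and 5, 4 and 0 after siCHD4. With 0 counts in siCtrl the ratio has a lower 95% limit of 1.46 and no upper one (counting error only), siCHD4 replicate 3 shared the 0 of siCtrl, and the exact two-sided permutation p was 0.4. In the siCHD3 table it had 0, 1 and 1 counts in siCtrl and 3, 1 and 0 after siCHD3 (exact two-sided permutation p = 0.6).

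The genes around the cluster were asked whether they moved with PADI1 and PADI3. Of 51 annotated genes within 500 kb of its outer ends, 12 were tested after siCHD4. None was called, where 4.8% of all genes tested were called higher and 1.65% lower. The 12 had log2 fold changes from -0.80 to 0.84 and a median of 0.12 against -0.06 over all genes tested. SDHB, a subunit of succinate dehydrogenase 12729 bases beyond PADI2, had a log2 fold change of 0.32 ± 0.20, and RCC2, a regulator of chromosome condensation 5061 bases beyond PADI6, had 0.32 ± 0.17. After siCHD3, 13 were tested, 1 was called higher and 1 lower, and their median was -0.15 against -0.02. Of all genes tested there, 3.89% were called higher and 4.33% lower. With so few neighbours tested, these counts of calls do not set them apart from all genes.

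ATP13A2, a lysosomal polyamine transporter, was the neighbour called higher after siCHD3. It measured 18.1, 36.7 and 47.6 CPM in siCtrl and 70.2, 108 and 79.4 CPM in siCHD3 (log2 fold change 1.33 ± 0.32, edgeR adjusted p = 0.0198). The call was lost without siCtrl replicate 5 or siCHD3 replicate 3 (edgeR adjusted p = 0.0624 and 0.0695). MFAP2, a microfibril protein gene, was called lower, from 0.844, 0.809 and 0.968 CPM to 0.278, 0.307 and 0.396 CPM (log2 fold change -1.40 ± 0.33, edgeR adjusted p = 0.01). In siCtrl replicates 1 to 3, normalized separately, both overlapped their siCHD3 levels. ATP13A2 stood there at 94.3, 148 and 354 CPM and MFAP2 at 0.243, 0.461 and 0.518 CPM. NBPF1, CROCCP2, CROCC, SDHB, RCC2, ARHGEF10L and ACTL8 were not called in either table, and NBPF1, CROCC and CROCCP2 belong to families of near-identical copies, so their counts are uncertain.

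**Figure D4:**
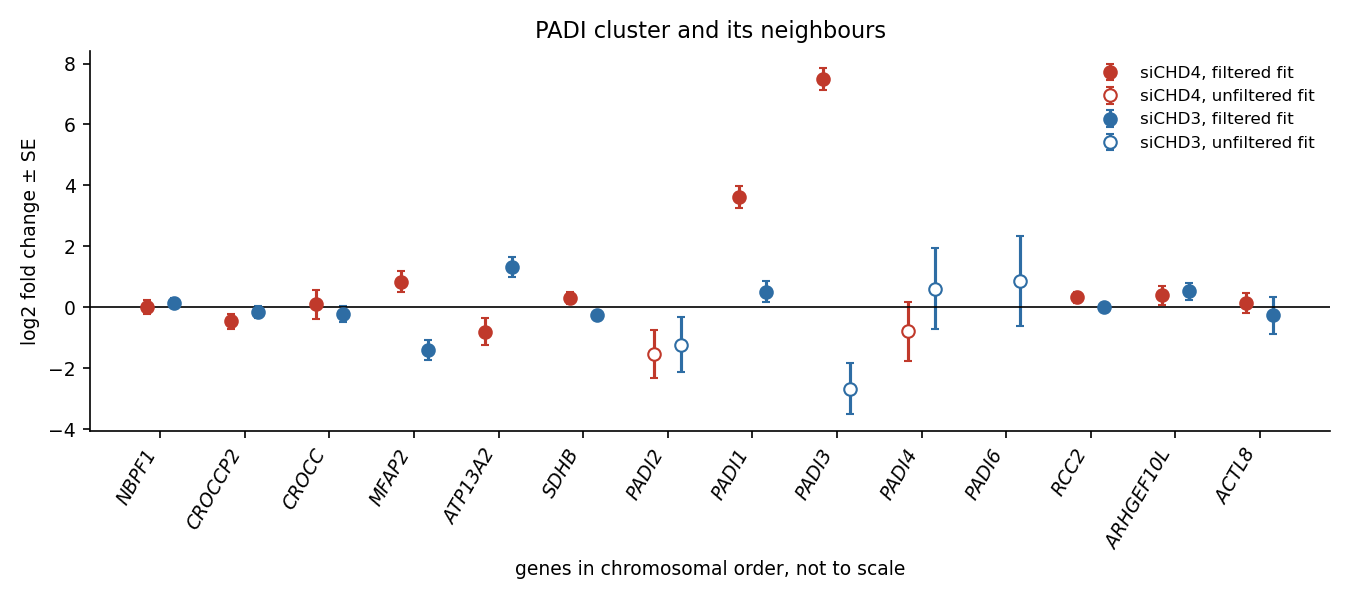
Log2 fold change ± SE of the PADI genes and of the named neighbours tested, in chromosomal order and not to scale, after siCHD4 (red) and siCHD3 (blue). Filled points are from the fit with the count filter and open points from the fit without it, PADI6 after siCHD4 is left out because its siCtrl libraries had 0 counts, and PADI1 and PADI3 after siCHD4 (3.63 and 7.50) stand above neighbours that run from -0.80 to 0.84.

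Genes that accompany these enzymes in skin were described from lists. Their counts of calls are to be read against the 4.8% of all genes called higher and 1.65% lower after siCHD4, and 3.89% and 4.33% after siCHD3. Calls after siCHD3 rest on siCtrl replicates 4 to 6 alone, and 44.8% of genes did not overlap between the control sets. Levels in siCtrl replicates 1 to 3 are given beside them, although the tables were normalized separately. Of 28 epidermal cornification genes 5 were tested after siCHD4, of which 2 were called higher and none lower. PPL, which encodes the cornified envelope protein periplakin, rose from 0.577 ± 0.353 to 16.6 ± 1.31 CPM (log2 fold change 4.93 ± 0.43, edgeR adjusted p = 0.0014). TGM5, a transglutaminase that cross-links the envelope, rose from 0.333 ± 0.213 to 1.29 ± 0.0144 CPM (1.88 ± 0.42, edgeR adjusted p = 0.0385), a call lost without siCtrl replicate 2 or any of the siCHD4 libraries (edgeR adjusted p = 0.141 to 0.165). CNFN and EVPL had log2 fold changes of 0.31 and 1.20 and KRT10 of -0.54, none past the test. The median over the 5 genes tested was 1.20 after siCHD4. This is the value of EVPL, which had 16 counts in siCtrl and 62 after siCHD4 (edgeR adjusted p = 0.531). The other listed genes had too few counts for the test or were absent, so this median does not describe the list. After siCHD3 the median was 0.22 over 4 genes tested, with none called.

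Of 32 known substrates of these enzymes 22 were tested in each table. After siCHD4, 1 was called higher and none lower, with a median log2 fold change of -0.19. It was GFAP, an astrocyte filament, with 1 count in siCtrl and 41 after siCHD4, a call lost in 4 of 6 fits that left out a library. GFAP passed the count filter only through its siCHD4 libraries (0.128 to 0.184 CPM, against 0 to 0.0132 CPM in siCtrl), so its call is not itself a result. After siCHD3, MBP, a myelin protein, rose from 83.5 ± 6.73 to 220 ± 23.2 CPM (log2 fold change 1.40 ± 0.14, edgeR adjusted p = 4.61e-05), and IL8, a chemokine, fell from 90.5 ± 6.35 to 19.4 ± 1.20 CPM (-2.22 ± 0.14, edgeR adjusted p = 2.75e-06). In siCtrl replicates 1 to 3 MBP stood at 155, 177 and 233 CPM, overlapping siCHD3. IL8 stood there at 2.96, 1.42 and 5.42 CPM, below all siCHD3 libraries. PKM, the pyruvate kinase gene, had log2 fold changes of -0.57 ± 0.37 and -0.09 ± 0.16, neither past the test. None of 18 glycolysis enzymes was called after siCHD4 (median -0.36). Their summed level was 54055 CPM in siCtrl replicate 3, the library that stood apart, against 24736 and 25077 CPM in siCtrl replicates 1 and 2 and 24567 to 26049 CPM in siCHD4. Without siCtrl replicate 3, a choice made after seeing the data, their median was -0.096 and 1 was called higher (ENO2). In that fit the median of the substrates was 0.022 with 2 called higher, S100A3 and GFAP, the latter again tested only through its siCHD4 libraries. After siCHD3 ENO2 fell from 259 ± 22.7 to 75.6 ± 9.10 CPM (edgeR adjusted p = 1.63e-05), with a median of -0.08. ENO2 stood at 246, 227 and 458 CPM in siCtrl replicates 1 to 3, also above all siCHD3 libraries.

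Of 15 NuRD subunits tested after siCHD4, CHD4 fell and CHD5, another alternative ATPase, rose from 0.233 ± 0.0514 to 1.30 ± 0.157 CPM (log2 fold change 2.47 ± 0.29, edgeR adjusted p = 0.00352), with a median of 0.09. Of 14 after siCHD3, CHD3 alone was called, and the median was 0.26. The study reports CHD4 at a regulatory element of PADI1. Of 10 other genes listed for it, the study's text places CTCF, FOSL2, BRG1 (SMARCA4) and H2AZ there. FOSL1 is named only in a supplementary legend, whose title and data sources give FOSL2. A further 5 AP-1 subunits were added to the list. Of the added ones JUN, a subunit of AP-1, was called lower after siCHD4 (9.11 ± 1.81 to 3.81 ± 0.264 CPM, edgeR adjusted p = 0.0142; 0.0741 to 0.112 without siCtrl replicate 2 or any of the siCHD4 libraries). After siCHD3, of the factors named by the study, FOSL1 was called lower (log2 fold change -1.92) and the remodelling ATPase SMARCA4 higher (1.51). Of the added ones FOSB (-1.80) and JUN (-1.02) were called lower and JUND (1.40) higher. FOSL1, FOSB, JUN and JUND overlapped between siCHD3 and siCtrl replicates 1 to 3. SMARCA4 stood at 256, 334 and 619 CPM in siCtrl replicates 1 to 3, above the siCHD3 libraries (193 to 250 CPM). The medians were -0.23 and -0.28.

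Hypoxia targets and factors had 1 call of 13 after siCHD4, where 4.8% of all genes were called higher and 1.65% lower, CA9 (log2 fold change 2.52 ± 0.38, edgeR adjusted p = 0.00849; 0.0507 to 0.0599 when siCtrl 2, siCHD4 1 or siCHD4 3 was left out). After siCHD3, EPAS1 was called higher (log2 fold change 1.16) and ADM lower (-1.61). The siCtrl replicates 1 to 3 held 84.6 to 92.2 CPM of EPAS1, below all siCHD3 libraries, and 22.2 to 29.7 CPM of ADM, overlapping them. Among markers of other cells, the endothelial CDH5 (2.17 ± 0.39) and the mesenchymal PDGFRB (1.65 ± 0.33) were called higher after siCHD4, at 1.00 and 0.826 CPM, and neither was called with any siCHD4 library left out. The summed level of these 4 endothelial and fibroblast markers ran from 1.09 to 3.49 CPM in siCtrl and 3.14 to 4.15 CPM in siCHD4, with PECAM1 without counts, and its part in the rise of PADI1 and PADI3 was not tested. The keratinocyte sum, nearly all of it KRT10, ran from 15.1 to 23.0 CPM in siCtrl and 11.8 to 16.8 CPM in siCHD4. Of 6 granulocyte markers 1 was tested after siCHD4, with no call, and 0 after siCHD3. Oocyte markers had 1 call, GDF9, lower after siCHD3 (log2 fold change -1.63, edgeR adjusted p = 0.0147). Levels of GDF9 in siCtrl replicates 1 to 3, at 0.232, 0.184 and 0.491 CPM, overlapped those in siCHD3.

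PADI1 and PADI3 had a Pearson correlation of 0.917 of log2 CPM taken against the siCtrl mean of each table, although their ratio moved after siCHD3. This is a description over 12 libraries that share 3 siCHD4 libraries far from the rest. Of 15293 genes, 187 had a correlation over 0.9 with PADI1 and 305 with PADI3, and PADI3 ranked 127 among those most like PADI1 and PADI1 ranked 226 among those most like PADI3. Those most like PADI1 were GDPD3 (0.985), PI4K2A, MAPK8IP2, HR and CST2 (0.977). Those most like PADI3 were CXXC5 (0.990), TEX19, SLC6A12, P4HA3 and ME3 (0.983). The 5 genes nearest to PADI3 had log2 fold changes from 2.08 to 3.62 after siCHD4 and from -1.68 to -0.40 after siCHD3. They were picked for moving with PADI3 in these same libraries, so these directions follow from the choice and are no separate result. SLC6A12, a betaine transporter, went from 0.222, 0.211 and 0.327 CPM to 2.96, 2.87 and 3.25 CPM after siCHD4, and from 0.921, 0.636 and 0.790 CPM to 0.209, 0.284 and 0.234 CPM after siCHD3.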

How the data were processed

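RNA-seq was made from 12 libraries of 501Mel cells. Per the labels, cDNA was amplified linearly before library PCR, so reads are not independent molecules. Tools named in the submitters' processing notes are TopHat2 2.0.10, Bowtie2 2.1.0 and 2.2.8, HTSeq, DESeq2, CASAVA 1.8.2 and cutadapt, with the build hg19. Counting strand and annotation release were not given in the sources used here. Every test rests on the raw counts per gene that the authors deposited. The deposited normalized signal is those counts over a size factor, and with the same signal per kb it gave the authors' gene length. The authors' deposited log2 fold changes and p-values of each comparison were not used. Rows that name no gene (5, for siCHD3) hold 0% of the reads.

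Genes kept by filterByExpr were scaled by TMM and tested with edgeR 4.0.16 (glmQLFit robust, glmQLFTest), each silencing against the siCtrl libraries of its own table, and the difference of the responses as an interaction over 12 libraries, with Benjamini-Hochberg adjustment over all genes tested. Log2 CPM had a prior count of 2. Exact permutation tests used scipy 1.17.1, with intervals of count ratios from the exact conditional binomial (95%). These intervals hold counting error only, not the spread between libraries. Alternatives were DESeq2 1.42.0, its size factors, no count filter, 1 joint fit, a replicate block and each library left out. The fits were tested on simulated data with known changes. The siCHD4 fit called 12% of 2-fold and 72% of 4-fold changes, the siCHD3 fit 40% and 88%, and the difference test 4% and 52%. A 2-fold change lies at the fold threshold. Genes that were not called may therefore have changed by such amounts. Gene coordinates came from GENCODE v44lift37. Named were the members, CHD3, CHD4, all tested neighbours with a symbol, up to 4 called members of each list per comparison and the 5 genes most like PADI1 and PADI3. PKM, KRT10, CNFN, EVPL, PECAM1 and S100A3 were named after their values were seen. The members and lists were chosen with earlier results of these data known.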

Additional observations from a re-analysis of the deposited data

Results flagged for a closer look

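PADI2 in siCtrl replicate 2 stood far above the other 5 siCtrl libraries, at 0.647 CPM on the library total alone against 0.178 CPM in the next. Chance sets off this criterion in about 1 in 20 groups, and 7 genes were examined. The responses to siCHD4 and siCHD3 differed in the edgeR interaction test for PADI3 (log2 difference 10.21), PADI1 (3.13), CHD3 (2.76, adjusted p = 2.70e-05) and CHD4 (-3.79, adjusted p = 4.60e-06), the last pair being the silenced genes. Of the named neighbours, MFAP2 (2.25 ± 0.44, adjusted p = 0.00495) and ATP13A2 (-2.11 ± 0.60, adjusted p = 0.0345) differed too. Each difference is taken against 2 control sets, which themselves differed 10.7-fold in PADI3 and 2.25-fold in PADI1.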

How the results depend on the processing

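PADI1 and PADI3 were called higher after siCHD4, and different between the silencings, in every alternative run. Their log2 fold changes after siCHD4 ran from 3.40 to 4.06 and from 7.08 to 7.80 with a library left out. With the replicate number as a block they were 3.65 (edgeR adjusted p = 0.0069) and 7.48 (0.00371). Same-numbered libraries did not deviate together (correlations 0.033, 0.020 and 0.023, against -0.124 to 0.108 for crossed numbers). With 3 libraries a group this cannot exclude a pairing. The block took the calls of CDH5, GFAP, PDGFRB and TGM5. No paired analysis was possible for siCHD3, because siCtrl 4 to 6 and siCHD3 1 to 3 share no number. The count of members called lower after siCHD4 was 0 to 1 with a library left out (PADI2, without siCtrl replicate 1). After siCHD3 it was 1 (PADI3) without the count filter or in 1 fit over 12 libraries. The difference in mean log2 CPM after siCHD4 ran from -1.72 to 0.18 for PADI2 and from -0.76 to 0.36 for PADI4 with a library left out, and PADI4 was 0.12 with a prior count of 0.5. After siCHD3 it ran from -0.37 to 0.46 for PADI4 and from -0.084 to 0.60 for PADI6, and PADI4 was -0.086 with a prior count of 0.5. The PADI3 level after siCHD3, an alternative chosen after seeing the data, ran from -2.17 to -1.48. The PADI3 to PADI1 log2 ratio in siCHD4 libraries turned to 0.43 with canonical transcript lengths and 0.78 with all exon bases. Neighbours called higher ran from 0 to 1 after both silencings, and those called lower after siCHD3 from 1 to 2. Some neighbours that were not called changed sign with a library left out. After siCHD4 ACTL8 ran from -0.048 to 0.58, CROCC from -0.29 to 0.65 and NBPF1 from -0.14 to 0.18. After siCHD3 ACTL8 ran from -0.74 to 0.21 and RCC2 from -0.10 to 0.085. Counts mostly under 10 a library limit PADI2, PADI4, PADI6 and PADI3 outside siCHD4, and 3 libraries a group limit every test.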
